A study of Mus musculus with 16 samples.

Results

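The genes described here are 9 genes of B cell positioning: Cxcr5, Ccr7, Ccr6, Cxcr4, Gpr183, Cnr2, S1pr1 and S1pr4, which encode chemoattractant receptors, and Klf2, which encodes a transcription factor. They were taken by gene name, with Blr1, Ebi2, Edg1 and Edg6 read as older names of Cxcr5, Gpr183, S1pr1 and S1pr4. All 9 were found among the 27670 genes of the array, on 12 probes, with 2 probes each for Cxcr4, Cnr2 and Klf2. Their expression was measured in follicular B cells of C.B17 mice on dual-colour Agilent arrays, with 8 samples on 16 arrays. Each sample was hybridised on a dye-swap pair of arrays against reference RNA pooled from 6 cell lines.

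Auto.Pos (n = 2) came from AGcAμκTg mice, whose transgenic receptor is directed against goblet cells of the intestine, with a VH3609μ heavy chain and a light chain written as Vk19-17κ in one label and as Vkappa17-17kappa in another. Auto.Neg (n = 2) came from ATAμκTg mice, whose transgenic receptor (VH3609μ/Vk21-5κ) is directed against Thy-1, in Thy-1 knockout animals, so that the antigen is missing. WT (n = 2) was wild type. Edited (n = 1) and Non-edited (n = 1) came from Thy-1 knockout mice carrying VH3609t +/- and Vk21-5Tg +/-. Receptor editing is the replacement of a light or heavy chain in a B cell that already carries a receptor. Age and the sorting gate were not stated in the labels. They also do not say whether samples of 1 group are separate mice, so each p-value reflects the spread between these samples, which may be technical.

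B cells find their place in lymphoid organs by following gradients. CXCR5 responds to CXCL13 made by follicular stroma, CCR7 draws cells to the border with the T cell zone, and GPR183 binds oxysterols made at the edge of the follicle. S1PR1 senses sphingosine 1-phosphate, which is abundant in blood and lymph, and so lets cells leave the organ, while CXCR4 and its ligand CXCL12 retain cells in bone marrow and in germinal centre dark zones. CCR6, CNR2 and S1PR4 are further receptors of mature B cells, and KLF2 is a factor of resting lymphocytes that in T cells drives S1pr1. In bulk samples, fewer cells that carry a transcript and less of it per cell cannot be told apart.

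All values below are log2 ratios of sample over reference, averaged over the arrays of a pair, and differences are on the same scale. A gene with 2 probes was tested on the brighter one. Ratios of different genes depend on the reference as well as on the sample and were not set against each other. The 12 probes were well above background in both channels on all 16 arrays, and 0 were saturated. Both probes of Cxcr4 lie on the minus strand of chromosome 1 (build mm7), the tested one at chr1:128468640-128468699, holding the polyadenylation letters, and the other at chr1:128469220-128469279. The Klf2 probes lie on the plus strand, the tested one at chr8:70844133-70844192 and the other at chr8:70842757-70842816. Because the probes of Cxcr4 and Klf2 disagree below, the 60 bases of their other probes are given here, with those of the Ccr6 and S1pr4 probes, the genes with the most opposite profiles. Capitals mark the longest run of G and C.
Cxcr4, other probe: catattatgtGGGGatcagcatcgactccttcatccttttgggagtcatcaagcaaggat
Klf2, other probe: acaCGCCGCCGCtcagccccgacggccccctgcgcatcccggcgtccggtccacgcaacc
Ccr6, tested probe (chr17_random:1192824-1192883): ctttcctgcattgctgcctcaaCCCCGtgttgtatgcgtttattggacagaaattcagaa
S1pr4, tested probe (chr10:81292729-81292788): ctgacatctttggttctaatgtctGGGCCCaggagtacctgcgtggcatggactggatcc
The other Klf2 probe holds 78.3% G and C, against 43.3% in the tested Klf2 probe, and the 2 Cxcr4 probes hold 45.0% (other) and 40.0% (tested).

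Protocol versions, taken from the protocol name in the headers, cut across the groups. The version was v5_91 for Auto.Pos sample 1, Auto.Neg sample 2 and WT sample 1, and v5_95 for the other 5 samples. It followed scan day, with v5_91 on days 1 and 2 and v5_95 on days 3 and 4. The figure legends call it a scanner protocol. Auto.Pos sample 1 shared a slide with Auto.Neg sample 2. Across all genes these 2 samples correlated at r = 0.978, against 0.904 between the Auto.Pos samples, 0.903 between the Auto.Neg samples and 0.923 between the WT samples. Per array, 61.9% to 81.9% of probes were above background in the channel of the sample. The median signal was 95.2 to 186 on 15 arrays and 735 on the Cy3 array of WT sample 2. All 8 B cell markers and the 3 follicular markers tested were well above background on 16 arrays, with list medians of 3.58 to 5.39 and 6.17 to 7.04. Single B cell genes moved more between samples, such as Cd79a at 3.21 to 5.73 and Pax5, at 0.17 and 0.25 in WT and 1.16 to 2.18 in the other samples. The median of 8 T cell markers was -3.59 to -2.44, though Cd4 (-0.01 to 0.34), Cd8b1 (-0.46 to 0.73) and Cd3e (-0.79 to -0.22) lay near the reference. One of the 2 probes of Thy1, the gene deleted in Auto.Neg, Edited and Non-edited, read -0.55 and 0.46 in Auto.Neg, -1.43 in Edited and -0.52 in Non-edited. The same probe read -2.93 and -3.77 in the Auto.Pos samples, and -3.62 and -3.06 in the WT samples. The other Thy1 probe read -4.54 to -3.73 in all 8. Where the deletion lies in Thy1 is not in the labels, and these probes cannot be used to check it. The submitters' series table gives 10 of its 16 columns the values of another array than the one they are labelled with. The scanner files' own labels were used here, and values under the table's labels stand beside the results they move. With that table used exactly as labelled, signs included, limma called 8 of the 9 genes in Auto.Pos against Auto.Neg, where it called 37.6% of all genes, and 8 in Auto.Neg against WT, where it called 34% of all genes. Once every column was turned to sample over reference, a step added after seeing the data, it called 0 of the 9.

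The first question was whether cells with a self-reactive receptor place themselves differently from cells whose antigen is missing. Between Auto.Pos and Auto.Neg the 9 genes were close, with differences from -0.02 for Cxcr4 to 0.35 for Cnr2. By limma 0 of the 9 were called at an adjusted p under 0.05, against 0.0147% of the 20469 genes tested (3 genes), and 0 of the 9 had an unadjusted p under 0.05, against 1.04% of all genes. The samples of the groups overlapped for all 9 genes, while they did not for 19.2% of all genes (8.17% of all genes lower in Auto.Pos). The median difference was 0.10 over the 9 and 0.02 over all genes.

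For the receptors of follicle and T cell zone, the samples within a group lay further apart than the means of Auto.Pos and Auto.Neg did. Cxcr5, the receptor for entry into follicles, read 7.16 and 6.37 in Auto.Pos, 6.44 and 6.88 in Auto.Neg, 7.07 and 6.57 in WT, 6.84 in Edited and 6.76 in Non-edited. Within Auto.Pos the samples were 0.79 apart, which is also the range over all 8 samples. The 2 arrays of a pair lay further apart, by 2.06 in Auto.Pos sample 1 and 2.03 in Auto.Pos sample 2. Ccr7, the T cell zone receptor, read 6.17 and 5.71 in Auto.Pos, 5.53 and 6.18 in Auto.Neg, 6.13 and 5.10 in WT, 5.41 in Edited and 5.75 in Non-edited. Its 3 highest readings are those of the 3 v5_91 samples. Gpr183, the oxysterol receptor, read 5.24 and 4.56 in Auto.Pos, 4.08 and 5.14 in Auto.Neg, 5.23 and 4.37 in WT, 4.38 in Edited and 4.23 in Non-edited. Here too the v5_91 samples were the 3 highest, 1 in each group of 2, and all 5 v5_95 samples lay below them. Auto.Pos minus Auto.Neg was 0.29 for Gpr183 (SE 0.507, limma adjusted p = 1.00) and 0.09 on the slide that held both groups.

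**Figure D1:**
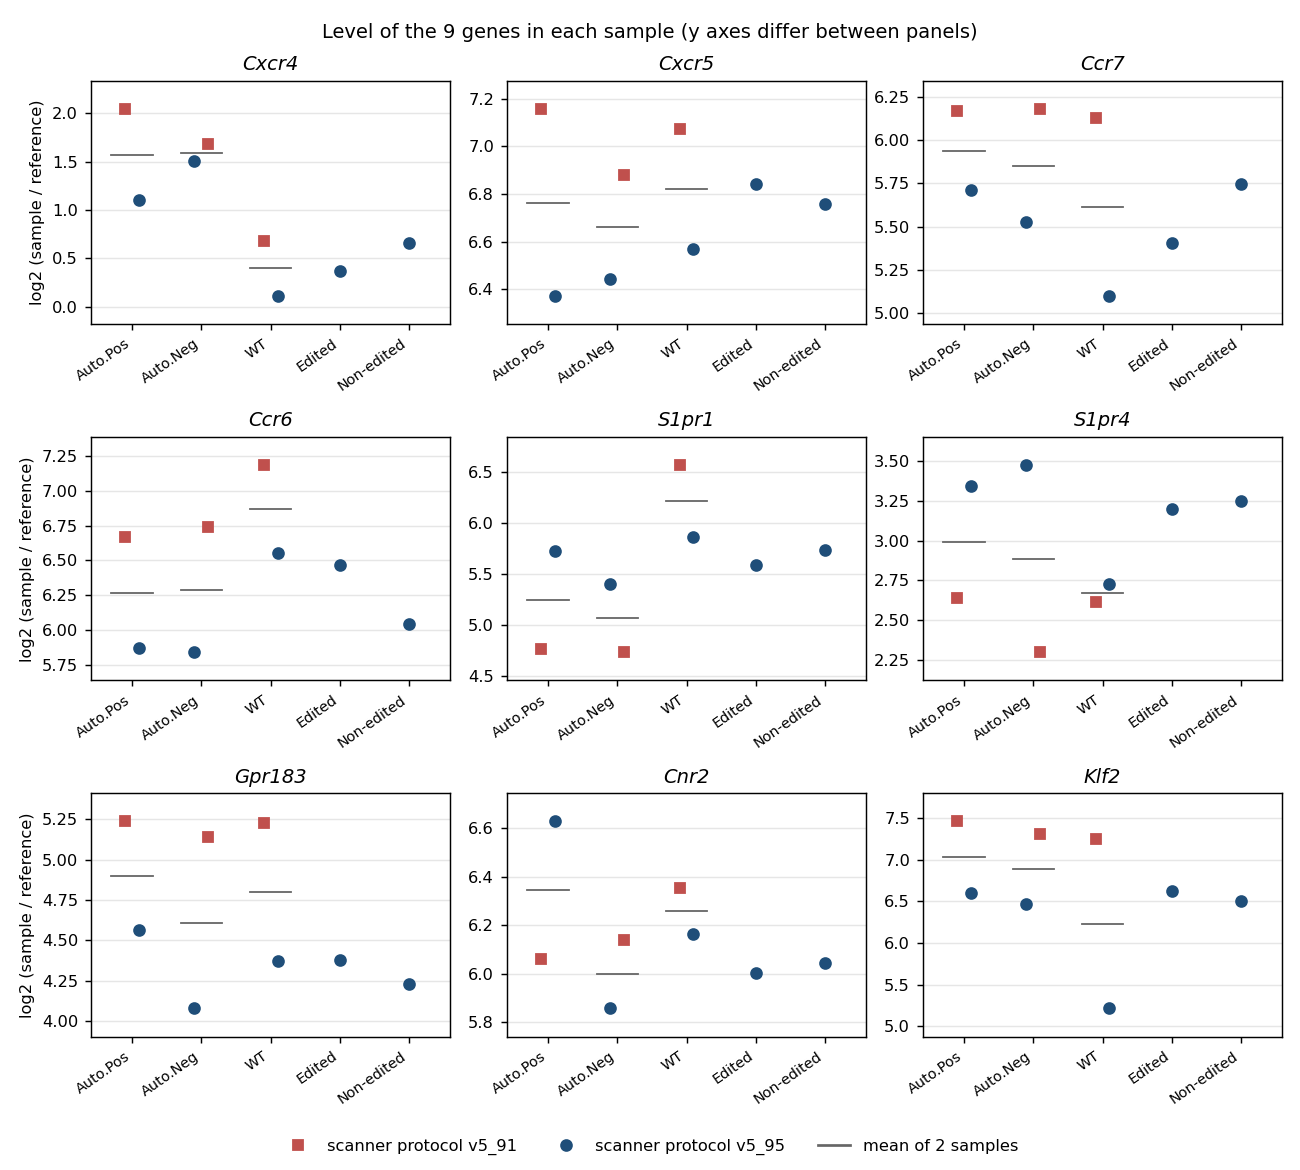
Log2 ratio of sample over reference (y axis, own scale in each panel) of the 9 genes in each of the 8 samples, by group, with squares for protocol version v5_91, circles for v5_95 and a line at the mean of groups of 2. Klf2, Ccr7, Gpr183, Ccr6 and Cxcr5 are highest in the 3 squares, and Cxcr4 is higher in all 4 Auto.Pos and Auto.Neg samples than in WT, Edited and Non-edited. In single dye orientations the squares were not the highest for Cxcr5 and Ccr6. With samples in Cy3, Cxcr5 read 6.28 in Edited and 6.13 in Auto.Pos sample 1. With samples in Cy5, Ccr6 read 7.36 in Edited and 7.30 in Auto.Pos sample 1.

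Cnr2, the cannabinoid receptor of B cells, read 6.06 and 6.63 in Auto.Pos, 5.86 and 6.14 in Auto.Neg, 6.35 and 6.16 in WT, 6.002 in Edited and 6.04 in Non-edited. Auto.Pos sample 2 alone stood apart, and on the shared slide Auto.Pos minus Auto.Neg was -0.08, against 0.35 for the groups (SE 0.271, limma adjusted p = 1.00). The other Cnr2 probe gave 0.09.

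The second question was how each transgenic group compares with WT. Cxcr4 had the largest differences of the 9 from WT in the normalization used here, but not under several other settings, scale normalization between arrays among them. With median centring S1pr1 differed more, by -1.172 against 0.947 for Cxcr4 in Auto.Pos and by -1.195 against 1.086 in Auto.Neg. With scan day as a random block Klf2 differed more in Auto.Pos, by 1.25 against 1.03. Cxcr4 read 2.04 and 1.10 in Auto.Pos, 1.50 and 1.68 in Auto.Neg, 0.68 and 0.11 in WT, 0.37 in Edited and 0.66 in Non-edited. Every Auto.Pos and Auto.Neg sample lay above every WT, Edited and Non-edited sample. Auto.Pos was 2.26-fold above WT (log2 1.17, SE 0.390, 95% interval 0.18 to 2.17, unadjusted p = 0.0289, limma adjusted p = 0.788). Auto.Neg was 2.29-fold above WT (log2 1.20, SE 0.390, 95% interval 0.20 to 2.19, unadjusted p = 0.0271, limma adjusted p = 0.983). The 2 comparisons share the WT samples, and neither passed the threshold over all genes. Within v5_91 and v5_95 the differences from WT were 1.36 and 0.99 for Auto.Pos and 1.00 and 1.39 for Auto.Neg. Their sign follows from the lack of overlap, so they are no further check.

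The other Cxcr4 probe did not show this. It read 0.04 and 1.49 in Auto.Pos, 1.78 and -0.46 in Auto.Neg, 0.38 and -0.58 in WT, 0.55 in Edited and 0.98 in Non-edited. Among the v5_91 samples WT was the highest on this probe, and among the v5_95 samples it was the lowest. Auto.Pos minus WT was 0.87 and Auto.Neg minus WT 0.76 on it, with overlapping samples. Under the column labels of the series table, turned to sample over reference, Auto.Pos minus WT was 0.10, Auto.Neg minus WT 1.12 and Auto.Pos minus Auto.Neg -1.02 on the tested probe.

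**Figure D2:**
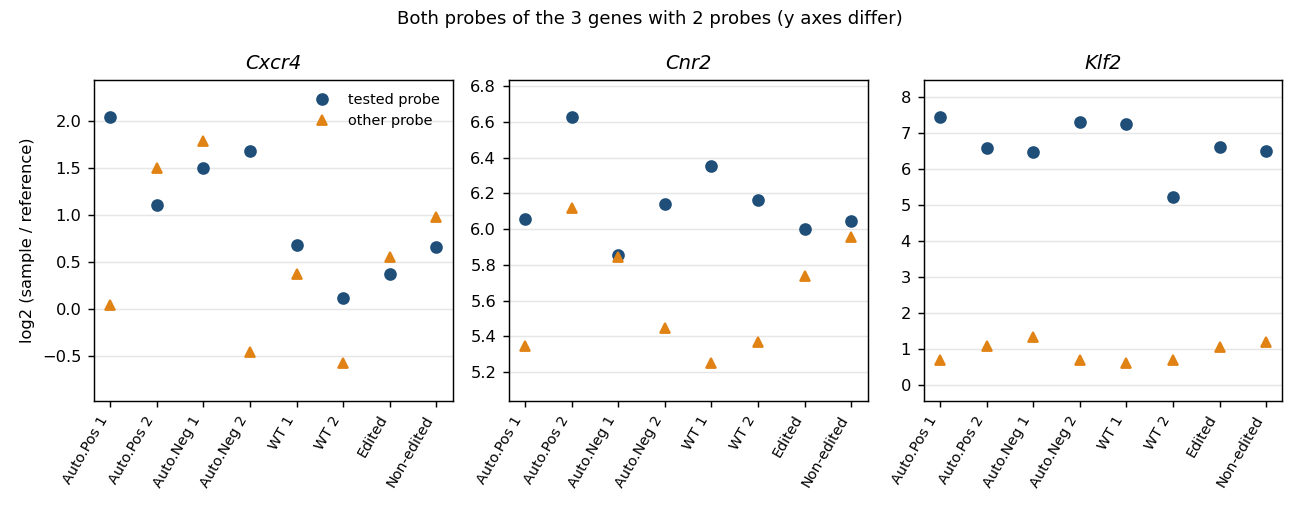
Log2 ratio (y axis, own scale in each panel) of Cxcr4, Cnr2 and Klf2 in the 8 samples, with circles for the tested probe and triangles for the other probe of the gene. The Cxcr4 probes read 2.04 and 0.04 in Auto.Pos sample 1 but 1.50 and 1.78 in Auto.Neg sample 1, and the other Klf2 probe stays between 0.60 and 1.33.

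S1pr1, the egress receptor, ran the other way. It read 4.76 and 5.73 in Auto.Pos, 5.41 and 4.73 in Auto.Neg, 6.57 and 5.86 in WT, 5.59 in Edited and 5.74 in Non-edited, on 1 probe at chr3:115486015-115486074. All 6 samples of the other groups lay below both WT samples, though Auto.Pos sample 2 and Non-edited only narrowly. Auto.Pos was at 0.510 of the WT level (log2 -0.97, SE 0.465, 95% interval -2.16 to 0.22, limma adjusted p = 0.975). Auto.Neg was at 0.451 of it (log2 -1.15, SE 0.465, 95% interval -2.33 to 0.04, limma adjusted p = 1.00). The size differed between protocol versions: Auto.Pos minus WT was -1.81 among v5_91 samples and -0.13 among v5_95 samples, and Auto.Neg minus WT was -1.84 and -0.46. With scan day as a random block the differences were -0.26 and -0.365, and after scale normalization between arrays -2.22 and -1.95, with the median of all genes hardly moved (0.07 and 0.05). Under the labels of the series table Auto.Pos minus WT turned to 0.41. Across the 8 samples S1pr1 and the tested Cxcr4 probe ran against each other (Pearson r = -0.75, Spearman rho = -0.74). This is a description over samples that share slides and scan days. On the other Cxcr4 probe, the higher sample within Auto.Pos, within Auto.Neg and within WT was also the one higher in S1pr1.

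By limma 0 of the 9 genes were called in Auto.Pos against WT and 0 in Auto.Neg against WT, against 0% of the 20469 genes in each. An unadjusted p under 0.05 was reached by 1 of the 9, Cxcr4, in each comparison, and by 5.63% of all genes in Auto.Pos and 4.6% in Auto.Neg. Samples did not overlap for 2 of the 9 in Auto.Pos against WT, Cxcr4 above and S1pr1 below, against 29.6% of all genes (10.4% of all genes below). They did not overlap for 3 of the 9 in Auto.Neg against WT, the same 2 and Cnr2 (-0.26, SE 0.271) below, against 25% of all genes. These shares are near those of all genes. The other Cnr2 probe gave 0.33, with the opposite sign. The median difference over the 9 was 0.10 in Auto.Pos and -0.16 in Auto.Neg, and over all genes 0.06 and 0.04.

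**Figure D3:**
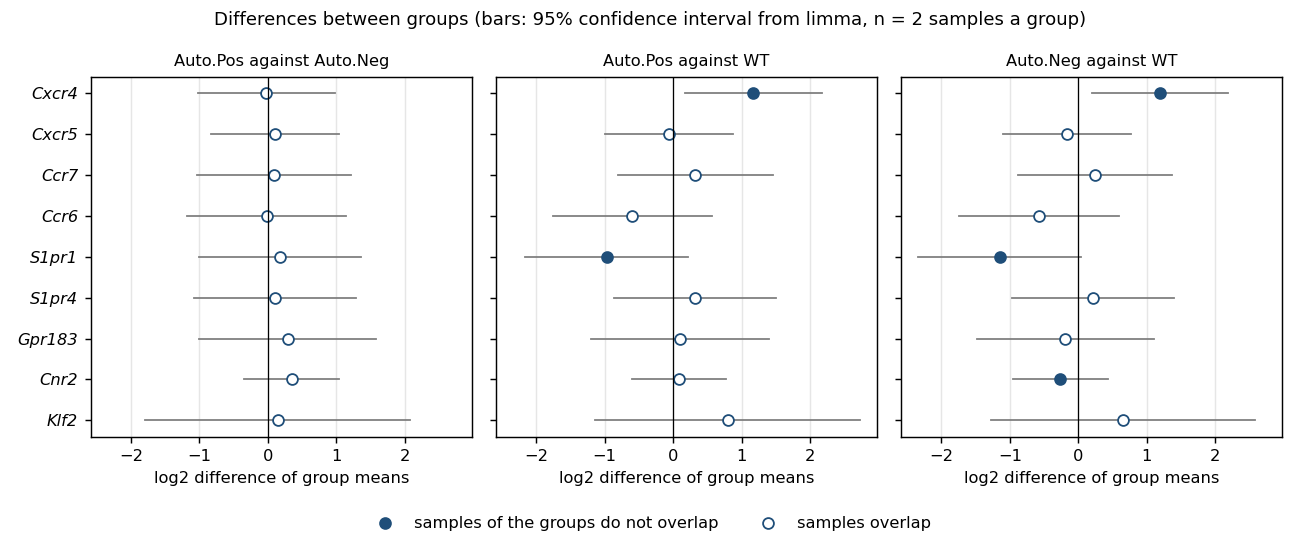
Differences of group means on the log2 scale (x axis) for the 9 genes in the 3 comparisons, with 95% confidence intervals from limma and filled points where the samples of the groups do not overlap. Only the intervals of Cxcr4 against WT, 0.18 to 2.17 for Auto.Pos and 0.20 to 2.19 for Auto.Neg, leave out 0, before any adjustment.

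Klf2 had the widest range over the samples among the 9 tested probes. It read 7.46 and 6.60 in Auto.Pos, 6.47 and 7.30 in Auto.Neg, 7.24 and 5.22 in WT, 6.63 in Edited and 6.51 in Non-edited. The 3 v5_91 samples were the highest and WT sample 2 the lowest, and the range over the 8 samples was 2.24, or 4.72-fold. The other Cxcr4 probe ranged further, over 2.36. Auto.Pos minus WT was 0.80 (SE 0.757, limma adjusted p = 1.00) and -0.22 without WT sample 2, and Auto.Neg minus WT was 0.65 and -0.36 without it. The other Klf2 probe, the one rich in G and C, read 0.71 and 1.08 in Auto.Pos, 1.33 and 0.69 in Auto.Neg, 0.60 and 0.71 in WT, 1.07 in Edited and 1.18 in Non-edited. Its range was 0.73, WT sample 2 did not stand apart on it, and the v5_91 samples were among the low ones.

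Ccr6, which responds to CCL20, read 6.67 and 5.87 in Auto.Pos, 5.84 and 6.74 in Auto.Neg, 7.18 and 6.55 in WT, 6.47 in Edited and 6.05 in Non-edited. WT was the higher group, and the samples overlapped. Within v5_91 Auto.Pos minus WT was -0.52 and within v5_95 -0.68, and for Auto.Neg the values were -0.44 and -0.71, against group differences of -0.60 (SE 0.456, limma adjusted p = 1.00) and -0.58 (SE 0.456, limma adjusted p = 1.00). Under the labels of the series table they turned to 0.32 and 0.48.

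S1pr4, a second sphingosine 1-phosphate receptor, read 2.64 and 3.34 in Auto.Pos, 3.47 and 2.30 in Auto.Neg, 2.61 and 2.73 in WT, 3.20 in Edited and 3.25 in Non-edited. The v5_91 samples were the 3 lowest, the reverse of Ccr7, Gpr183 and the tested Klf2 probe. In single dye orientations S1pr4 read 3.75 in Cy5 and 1.71 in Cy3 for WT sample 2, a v5_95 sample that was the lowest in Cy3. Its largest difference was 0.32, Auto.Pos against WT (SE 0.464, limma adjusted p = 1.00). Cxcr5, Ccr7 and Gpr183 differed from WT by -0.06, 0.33 and 0.10 in Auto.Pos and by -0.16, 0.24 and -0.19 in Auto.Neg, each within the spread of their groups.

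**Figure D4:**
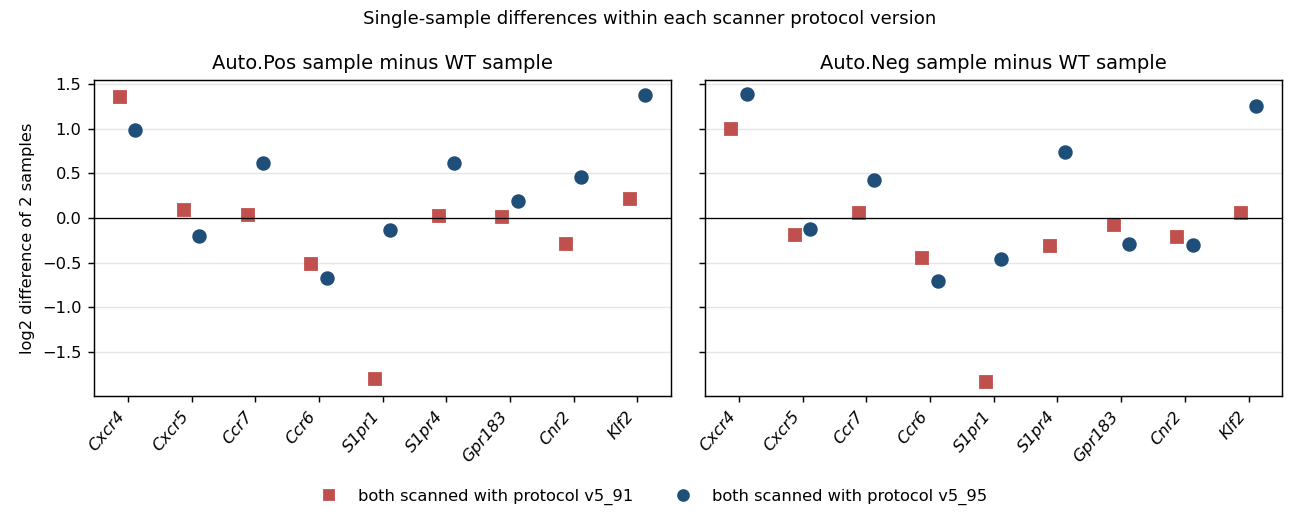
Log2 difference of 1 transgenic and 1 WT sample of the same protocol version (y axis) for the 9 genes, Auto.Pos at left and Auto.Neg at right, with squares for v5_91 and circles for v5_95. Cxcr4 lies at 0.99 to 1.39 in all 4 pairs and Ccr6 at -0.71 to -0.44, while S1pr1 lies near -1.8 only in the v5_91 pairs and Klf2 above 1 only in the v5_95 pairs.

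With scan day as a random block (estimated correlation within days 0.917), limma called 3 of the 9 genes in Auto.Pos against WT, beside 20.4% of all genes. They were Cxcr4 (1.03, adjusted p = 0.0122), Ccr6 (-0.69, adjusted p = 0.0325) and Klf2 (1.25, adjusted p = 0.036), and 1 scan day held both groups, through Auto.Pos sample 2 and WT sample 2. It called 0 of the 9 in Auto.Neg against WT (2.24% of all genes) and 0 in Auto.Pos against Auto.Neg (0.191%). Markers of other cells also differed between the samples: the median of 6 macrophage markers was 2.81 and 1.96 in Auto.Pos, 1.37 and 2.63 in Auto.Neg, 2.72 and 2.83 in WT, 1.39 in Edited and 1.04 in Non-edited, all 6 well above background on 16 arrays. The median of 5 erythroid and platelet markers was 6.66 and 4.06 in Auto.Pos, 2.63 and 2.91 in Auto.Neg, 2.95 and 4.93 in WT, 1.95 in Edited and 1.11 in Non-edited, with the platelet gene Ppbp highest in Auto.Pos sample 1, at 6.86. The median of 5 neutrophil markers was 3.37 and 1.67 in Auto.Pos, 3.50 and 2.30 in Auto.Neg, 3.21 and 4.32 in WT, 0.29 in Edited and 2.89 in Non-edited, and 2 of these 5 were well above background on all 16 arrays. The part of these cells in the differences was not tested.

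The order of the group means differed from gene to gene. Cxcr4 ran from Auto.Neg (1.59) and Auto.Pos (1.57) through Non-edited (0.66) and WT (0.40) to Edited (0.37), and its only gap wider than the SD of the groups beside it, 0.92, lay between Auto.Pos and Non-edited. S1pr1 ran from WT (6.22) through Non-edited (5.74), Edited (5.59) and Auto.Pos (5.25) to Auto.Neg (5.07), with no neighbours apart by more than the SD of 0.50 in WT. For Ccr6 WT was first (6.87) and Non-edited last (6.05), and for S1pr4 Non-edited was first (3.25) and WT last (2.67), the SDs within groups reaching 0.63 and 0.83. For Cxcr5 the order ran from Edited (6.84) to Auto.Neg (6.66), with every gap under the SDs of the groups.

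The third comparison was of Edited with Non-edited cells, 1 sample each, so that it has no replicate check and no p. A difference of 2-fold or more on both arrays of the swap was seen for 0 of the 9 genes, against 1.39% of the 20469 genes (1.22% higher and 0.171% lower in Edited). Ccr6 differed most, with 6.47 in Edited and 6.05 in Non-edited, but the difference was 0.85 with the samples in Cy5 and -0.01 with the samples in Cy3. Ccr7 was 0.34 lower in Edited than in Non-edited, by -0.32 and -0.36 in the 2 orientations. Cxcr4 differed by -0.29, with -0.22 and -0.36, and by -0.43 on its other probe. These were the 2 largest differences whose sign was the same in both orientations. S1pr1, S1pr4, Gpr183, Cnr2, Klf2 and Cxcr5 differed by -0.14 to 0.15.

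**Figure D5:**
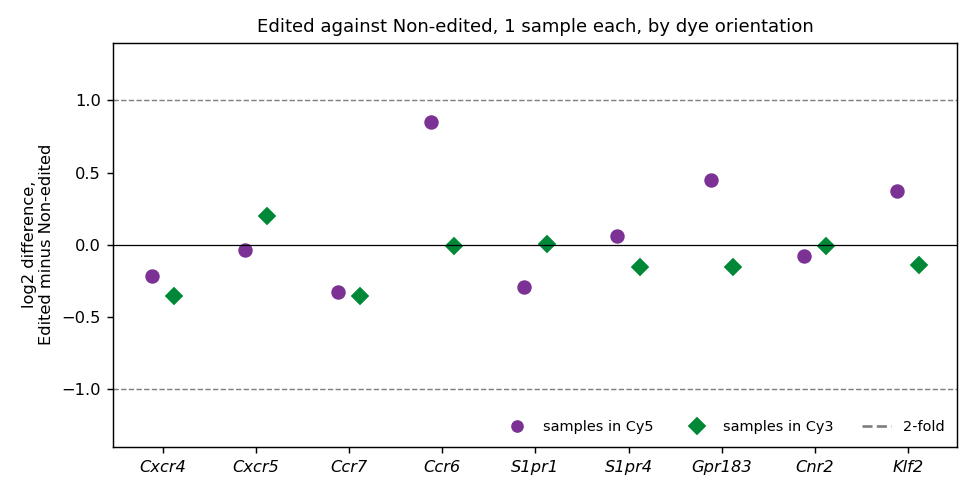
Log2 difference of Edited minus Non-edited (y axis) for the 9 genes, with circles for the arrays that held the samples in Cy5, diamonds for those that held them in Cy3 and dashed lines at 2-fold. Ccr6 reaches 0.85 in one orientation and -0.01 in the other, and no gene passes a dashed line.

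The 9 genes did not vary as one set. Over the 8 samples Ccr7 and Klf2 ran together (Pearson r = 0.93, Spearman rho = 0.81), as did Ccr7 and Gpr183 (0.82 and 0.67) and Cxcr5 and Ccr6 (0.80 and 0.83). Ccr6 and S1pr4 ran against each other (-0.85 and -0.98). These are descriptions over 8 samples on the tested probes. There the genes named here as running together were all highest in the v5_91 samples. On the other Klf2 probe those samples were low, at 0.71 (Auto.Pos sample 1), 0.69 (Auto.Neg sample 2) and 0.60 (WT sample 1). Auto.Neg sample 1 was highest on it, at 1.33, so the running together of Klf2 rests on 1 probe. Not every pair of the genes running together was close on the tested probes, with Pearson r = 0.37 for Ccr6 and Klf2 and 0.44 for Ccr7 and Ccr6. Cxcr4, not highest in the v5_91 samples, reached 0.69 with Klf2. Among 15766 other named genes measured in all 8 samples, the profiles closest to Klf2 were those of Fam193b (r = 0.998), Timm44 (0.988) and Ccndbp1 (0.983). Closest to Cxcr4 were Akap3 (0.990), Card6 (0.981) and Gsdmc3 (0.978), and closest to S1pr1 were Txndc5 (0.985), Etv3 (0.980) and Ap2a2 (0.973).

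For genes that ran together, promoters were read from RefSeq (build GRCm38.p6), which held a window for 6 of the 9 genes. The 250 bases before the start of Klf2 and of Gpr183, which ran together at r = 0.72 on the tested Klf2 probe, are shown. The other Klf2 probe was highest in Auto.Neg sample 1, at 1.33, where Gpr183 was lowest, at 4.08. Capitals mark CACCC, letters bound by KLF proteins, and TGTTT, the core of forkhead sites, searched on both strands, and the matches shown do not overlap.
Klf2 (chr8:72318812-72319061, plus strand): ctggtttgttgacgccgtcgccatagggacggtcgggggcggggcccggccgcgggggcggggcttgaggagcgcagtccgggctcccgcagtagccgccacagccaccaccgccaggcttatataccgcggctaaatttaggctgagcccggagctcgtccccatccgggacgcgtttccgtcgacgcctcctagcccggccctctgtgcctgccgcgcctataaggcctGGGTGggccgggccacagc
Gpr183 (chr14:121965194-121965443, minus strand): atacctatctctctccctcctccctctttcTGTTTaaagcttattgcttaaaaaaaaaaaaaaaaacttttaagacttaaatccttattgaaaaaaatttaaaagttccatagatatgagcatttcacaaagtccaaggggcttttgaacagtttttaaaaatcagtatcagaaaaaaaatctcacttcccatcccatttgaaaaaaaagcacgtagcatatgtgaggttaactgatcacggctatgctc
Klf2 held CACCC 1 time and TGTTT 0 times, and Gpr183 held CACCC 0 times and TGTTT 1 time. Of 32851 promoter windows of this length 52% held CACCC and 46.4% held TGTTT, so either string is common. A match in a window describes its letters and shows no binding.

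Of 6 lists of related genes (other chemokine receptors, genes of the lipid ligands, chemokine ligands, G protein signalling, adhesion and motility, and regulators of the 9 genes), 90 genes were tested. By limma 0 of the 90 were called in each of the 3 comparisons. Samples did not overlap for 9 higher and 6 lower genes of the 90 in Auto.Pos against Auto.Neg, for 13 higher and 9 lower in Auto.Pos against WT and for 11 higher and 8 lower in Auto.Neg against WT. Over all genes the shares were 11.1% higher and 8.17% lower, 19.2% and 10.4%, and 15.4% and 9.57%, so that the 90 genes did not exceed the background. The median differences were 0.00, 0.04 and 0.04, beside 0.02, 0.06 and 0.04 over all genes.

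Among G protein regulators, Rgs2, which dampens receptor signalling, read -0.00 and -0.10 in Auto.Pos, 0.32 and 0.90 in Auto.Neg, and WT samples read -1.08 and -1.09. Both transgenic groups lay above WT, Auto.Pos by 1.04 (limma adjusted p = 0.575) and Auto.Neg by 1.69 (limma adjusted p = 0.303), and its other probe gave 0.77 for Auto.Neg. Auto.Pos minus Auto.Neg was -0.66, and -0.44 on the other probe, where Auto.Pos thus lay above WT by less than the 0.77 of Auto.Neg. Rgs18 read 1.50 and 0.95 in Auto.Pos, 0.78 and 1.24 in Auto.Neg, with WT at -0.84 and 0.21, and was above WT by 1.54 (limma adjusted p = 0.66) and 1.32 (limma adjusted p = 0.983). Rgs13, a regulator known from germinal centre B cells, was 1.27 above WT in Auto.Neg (limma adjusted p = 1.00).

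Among genes of the lipid ligands, Faah, which encodes the enzyme that breaks down the endocannabinoid anandamide, read 1.05 and 2.34 in Auto.Pos, 0.37 and -0.24 in Auto.Neg, -0.12 and 0.07 in WT, 1.21 in Edited and -0.16 in Non-edited. It was 1.63 above Auto.Neg (unadjusted p = 0.0192, limma adjusted p = 1.00), 1.72 above WT (unadjusted p = 0.0157, limma adjusted p = 0.667), and 1.36 higher in Edited than in Non-edited. Its other probe gave 2.34, 2.04 and 1.30. S1pr3, a further sphingosine 1-phosphate receptor, read 1.61 and 0.46 in Auto.Pos, 1.03 and 1.43 in Auto.Neg, 2.90 and 2.15 in WT, 3.55 in Edited and 2.30 in Non-edited. It lay below WT in all 4 transgenic samples of the replicated groups, yet its other probe gave 0.00 and -0.11. S1pr2, a confining receptor of germinal centre cells, read -2.07 to -1.41 in the 8 samples. Sphk1, which makes sphingosine 1-phosphate, was 0.86 lower in Auto.Pos than in Auto.Neg, with -0.24 on another probe, and Sgpp1, which breaks it down, was 1.01 lower in Auto.Neg than in WT, with -0.10 on another probe.

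Foxo1, a factor known to drive Klf2 in lymphocytes, read 1.80 and 1.70 in Auto.Pos, 1.68 and 1.82 in Auto.Neg, with WT highest at 2.07 and 2.19. Cd69, whose protein holds S1PR1 back from the cell surface, read 2.54 and 2.29 in Auto.Pos, 2.72 and 2.92 in Auto.Neg, 2.36 and 1.88 in WT, 1.98 in Edited and 2.66 in Non-edited. It was 0.70 above WT in Auto.Neg (unadjusted p = 0.0381, limma adjusted p = 1.00) and 0.67 lower in Edited than in Non-edited, by -0.89 and -0.46 in the 2 dye orientations. Foxp1, a factor of mature follicular B cells, was 0.65 above Auto.Neg and 0.69 above WT in Auto.Pos. Itga4, an integrin chain, was 0.89 above Auto.Neg and 1.28 above WT in Auto.Pos, but its 5 other probes gave -0.65 to 0.12 and -0.25 to 0.76.

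Of the chemokine receptors outside the 9, Cxcr6 was 1.11 higher in Auto.Pos than in WT (SE 0.574, limma unadjusted p = 0.11) and was not called. It read -1.47 and -2.58 in Auto.Pos, -3.34 and -2.13 in Auto.Neg, and -3.44 and -2.83 in WT. A difference of 2-fold or more on both arrays of the swap was seen in Edited against Non-edited for 4 of the 90 genes, beside the 1.39% of all genes given above, which were 249 higher and 35 lower. The 4 were higher in Edited: Cxcr3 (1.45), Ackr2 (1.45), Faah (1.36) and S1pr3 (1.24, with 0.65 on another probe). Cxcr3, a receptor for interferon-induced chemokines, read 1.93 in Edited and 0.47 in Non-edited. Among ligands, Cxcl12, which stromal cells make for CXCR4, read 0.02 to 0.66 in the 8 samples. Cxcl13 was not tested here.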

How the data were processed

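The scanner files hold the raw spot and background intensity of each channel, per the file headers written by Agilent Feature Extraction (version 9.1.1.1, 9.1.3.1 or 9.5.1.1, by array), and a log10 ratio made by the same software. The deposited series matrix holds a log2 ratio per array. The submitters' processing notes name limma and no version. RNA was amplified and labelled with Cy3 or Cy5, per the labels' protocols. Of the 16 columns of the series matrix 6 matched their own array best (absolute r 0.977 to 0.996 to the best match).

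In R 4.3.3 with limma 3.58.1 and data.table (version 1.17.8), intensities were background-corrected by normexp with an offset of 50 and normalized by loess within arrays. Probes well above background on both arrays of at least 2 samples were kept (29640 of 41174), each gene by its brightest probe. limma fitted 1 mean per group to the 8 samples, with 3 residual and 2.11 prior degrees of freedom, and p-values were adjusted by Benjamini and Hochberg over 20469 genes, called under 0.05. On simulated data for Auto.Pos against Auto.Neg with 20469 genes, 0%, 20%, 58% and 78% of changes of 1, 2, 3 and 5 on the log2 scale were called, with 2 false calls. The simulated noise was independent between samples. In the data the deviations of Auto.Pos sample 1 and Auto.Neg sample 2 from their group means correlated at r = 0.788, so these rates may not hold for them.

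The 9 genes and the lists were chosen with earlier results of these data known. From the lists, the 5 genes furthest apart without overlap are named per comparison (for Edited, of 1 sign in both orientations), with Cd69, S1pr2, Foxo1, Cxcl12 and Cxcl13; 1 further gene of that rule is not reported here. Ccr6, S1pr4, Klf2 and Gpr183 were picked for printed sequences after their values were seen. Alternatives covered background, scaling, filters, probes, blocks, left-out samples and the series table. No column belonged to another series.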

Additional observations from a re-analysis of the deposited data

How the results depend on the processing

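Settings were changed one at a time for the 9 genes in 3 comparisons, and limma called 0 of the 9 under each of them except scan day as a random block, with 3 in Auto.Pos against WT, and the series table as labelled, with 8 in Auto.Pos against Auto.Neg and 8 in Auto.Neg against WT. Of the single-gene values 439 kept sign and side of the threshold, 15 kept their sign and newly passed, and 86 changed sign, 4 of which, in the table as labelled, passed too, and the cause was not tested. Numbers did not show a pairing: same-numbered Auto.Pos and Auto.Neg samples deviated oppositely (r = -0.788), and with the sample number as a replicate block, or the protocol version as a block, which is the crossed pairing, 0 of the 9 were called. A slide as a random block could not be estimated and was not run. Over all genes the call counts were 3 in Auto.Pos against Auto.Neg (0 to 39 elsewhere, 7704 in the table as labelled), 0 in Auto.Pos against WT (15 with the scanner's log ratio, 6 with scale normalization, 20 with a robust trended prior, 14 in the rematched table, 4180 with scan day) and 0 in Auto.Neg against WT (5 with a robust trended prior, 1 in the rematched table, 459 with scan day, 6962 in the table as labelled).

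In Auto.Pos against Auto.Neg, Cxcr4 changed sign to 0.00409 with the scanner's log ratio, 0.043 as the mean of probes, 0.30 with scan day and 0.81 in the table as labelled, where Ccr6 gave 6.60. Median centring gave -0.073 for Cxcr5, -0.038 for Ccr7 and -0.043 for S1pr4. Scale normalization gave -0.47 for Cxcr5, -0.39 for Ccr7, -0.27 for S1pr1, -0.20 for S1pr4, -0.086 for Gpr183, -0.16 for Cnr2 and -0.40 for Klf2. The turned table gave -0.27 for Cxcr5, -0.34 for Ccr7, -0.31 for Gpr183 and -0.45 for Klf2. Leaving out each sample gave -0.49 to 0.45 for Cxcr4, -0.29 to 0.50 for Cxcr5, -0.24 to 0.41 for Ccr7, -0.47 to 0.43 for Ccr6, -0.31 to 0.66 for S1pr1, -0.48 to 0.69 for S1pr4, -0.24 to 0.82 for Gpr183, 0.061 to 0.63 for Cnr2 and -0.29 to 0.57 for Klf2.

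In Auto.Pos against WT, the table, as labelled or turned, gave 0.21 for Cxcr5, 0.32 for Ccr6, 0.41 for S1pr1 and -0.055 for S1pr4. The scanner's log ratio gave -0.066 for S1pr4, -0.00398 for Gpr183 and -0.051 for Cnr2, and median centring -0.081, -0.12 and -0.14. Scale normalization gave -0.74 for Ccr7, -0.12 for S1pr4, -0.79 for Gpr183, -1.30 for Cnr2 and -0.56 for Klf2, and without a change of sign 0.97 for Cxcr4, -1.44 for Cxcr5, -1.95 for Ccr6 and -2.22 for S1pr1. Leaving out each sample gave 0.70 to 1.65 for Cxcr4, -0.45 to 0.34 for Cxcr5, -0.19 to 0.84 for Ccr7, -0.99 to -0.20 for Ccr6, -1.46 to -0.49 for S1pr1, -0.034 to 0.67 for S1pr4, -0.33 to 0.53 for Gpr183, -0.20 to 0.37 for Cnr2 and -0.22 to 1.81 for Klf2.

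In Auto.Neg against WT, the table as labelled gave -0.71 for Cxcr4, -5.73 for Ccr7, -3.38 for S1pr4 and -5.96 for Klf2, and turned it gave 0.47 for Cxcr5, 0.48 for Ccr6, -0.62 for S1pr4, 0.92 for Gpr183 and 0.026 for Cnr2. The scanner's log ratio gave -0.16 and median centring -0.038 for S1pr4. Scale normalization gave -0.36 for Ccr7 and -0.15 for Klf2, and without a change of sign 1.12 for Cxcr4, -1.44 for Ccr6 and -1.95 for S1pr1, while Cnr2 was 0.037 as the mean of probes and 0.36 with scan day. Leaving out each sample gave 0.91 to 1.48 for Cxcr4, -0.41 to 0.093 for Cxcr5, -0.27 to 0.75 for Ccr7, -1.02 to -0.13 for Ccr6, -1.50 to -0.79 for S1pr1, -0.37 to 0.80 for S1pr4, -0.72 to 0.35 for Gpr183, -0.40 to -0.12 for Cnr2 and -0.36 to 1.67 for Klf2. Groups of 2 limit the precision, and all 12 probes were well above background.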
